A study of Mus musculus with 18 samples.

Results

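The genes described here are 10 heat shock and mitochondrial chaperone genes, chosen by name out of the 55487 genes of a count table from mouse liver. They encode the stress-inducible HSP70 proteins (Hspa1a, Hspa1b), the constitutive HSP70 (Hspa8), the cytosolic HSP90 proteins (Hsp90aa1, Hsp90ab1), a small heat shock protein (Hspb1), the HSP110 nucleotide exchange factor (Hsph1), a J-domain cochaperone (Dnajb1) and the mitochondrial chaperonin with its cochaperonin (Hspd1, Hspe1). All 10 passed the filter on low counts in every comparison. RNA-Seq was conducted on livers of 18 male C57BL/6J mice, 1 library per mouse. CON-GFP mice (n = 6) ate a purified control diet, and FPC-GFP mice (n = 6) ate a high-fat diet with fructose, palmitate and cholesterol (FPC) and drank fructose-glucose water. FPC-LIPA mice (n = 6) ate and drank as the FPC-GFP mice did, but their viral vector carried LIPA, the gene for human lysosomal acid lipase, in place of GFP. All groups, CON-GFP included, had received an adeno-associated virus, and no liver without a vector was compared here. The mice were bought at 7 weeks of age and kept for 1 week before injection, the diets began 1 week after the injection and lasted 16 weeks, and livers were taken after a 4 h fast. The vector used the TBG promoter, which is active in hepatocytes, whereas the RNA came from whole liver with all its cell types. In such samples fewer cells of a type and less RNA per cell cannot be told apart.

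Heat shock proteins are chaperones that keep other proteins folded. Heat shock factor 1 binds heat shock elements, arrays of the letters GAA and TTC in alternating orientation, and raises the transcription of the inducible members when unfolded proteins accumulate, while Hspa8 and Hsp90ab1 are made at high levels in unstressed cells. Hspd1 and Hspe1 form the folding chamber of the mitochondrial matrix. Their genes lie head to head and share a bidirectional promoter.

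The promoter sequences below show where heat shock element letters lie. Hspa1a, Hspa1b and Hspb1 were picked because their RNA differed most with diet, and because Hspa1a and Hspa1b are hard to tell apart. Windows from 250 bases before to 50 after the RefSeq start (GRCm38.p6) were available for 7 of the 10 genes, not for Hspa8, Hsp90aa1 and Hsp90ab1. Only the 250 bases before each start, called the window from here on, were searched, on both strands. The motifs were TTCNNGAA and GAANNTTC, which are each their own reverse complement, and 13-letter forms that contain both, GAA, TTC and GAA with 2 letters of any kind between neighbours, or TTC, GAA and TTC spaced the same way, which are each other's reverse complement. In the sequences, capitals mark matches to the 8-letter motifs. The first 3 are the 250 bases that end just before the annotated start, written 5′ to 3′ on the gene's strand, at chr17:34972157-34972406 (minus strand) for Hspa1a, chr17:34959239-34959488 (minus strand) for Hspa1b and chr5:135887669-135887918 (plus strand) for Hspb1. The last is a site of 28 bases at chr1:55088054-55088081, written on the plus strand, the strand of Hspe1.
Hspa1a: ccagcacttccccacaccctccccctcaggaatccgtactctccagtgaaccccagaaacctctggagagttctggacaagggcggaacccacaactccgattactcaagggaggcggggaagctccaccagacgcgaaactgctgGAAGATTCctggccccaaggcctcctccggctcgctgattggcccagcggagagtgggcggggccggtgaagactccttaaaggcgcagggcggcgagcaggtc
Hspa1b: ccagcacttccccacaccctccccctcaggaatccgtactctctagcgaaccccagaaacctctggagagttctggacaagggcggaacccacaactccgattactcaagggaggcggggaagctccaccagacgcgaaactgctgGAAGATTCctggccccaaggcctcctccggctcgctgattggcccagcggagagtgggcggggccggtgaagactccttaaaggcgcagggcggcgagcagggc
Hspb1: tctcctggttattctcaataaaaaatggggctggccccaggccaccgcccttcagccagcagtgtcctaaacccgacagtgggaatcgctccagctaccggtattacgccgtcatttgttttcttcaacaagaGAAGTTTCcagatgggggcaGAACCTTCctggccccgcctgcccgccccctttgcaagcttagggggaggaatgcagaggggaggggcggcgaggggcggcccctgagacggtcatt
Hspe1 site: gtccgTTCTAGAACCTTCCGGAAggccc

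The Hspa1a and Hspa1b sequences were the same at 98.8% of their 250 bases and differed at 3. Each held 1 match, 104 bases before the start, and Hspb1 held 2, at 117 and 97 bases before it. The Hspe1 site lay 89 bases before the Hspe1 start and held 3 overlapping matches and both 13-letter forms. It falls in the Hspe1 window and in 1 of the 2 Hspd1 windows. The other Hspd1 window, of a start farther upstream, held 0 matches. As annotated (chr1:55077835-55088243, minus strand), Hspd1 contains the site, downstream of its annotated start. Of the 7 genes with a window, 6 held an 8-letter motif, and Dnajb1 held none. Such a motif was found for 14.5% of 27025 genes in the same table. Both 13-letter forms are rare, with 0.514% of genes holding one, and among the 7 genes only Hspd1 and Hspe1 did. A match of letters describes the window only, and binding was not measured. Dnajb1, without a match, was called higher with the diet, while Hspd1 and Hspe1, with 13-letter forms, were not called. A link between motifs and diet differences was not tested.

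On GRCm38, Hspa1a (chr17:34969190-34972156) and Hspa1b (chr17:34956436-34959238) are single-exon genes on the minus strand, 9951 bp apart. Of the 100-base stretches of Hspa1a exons, 56.5% also occur in another annotated gene, and 47.1% occur in Hspa1b. For Hspa1b 49.9% occur elsewhere. The share was 44% for Hspb1 (chr5:135887919-135889563), 38% for Hsp90aa1 (chr12:110690605-110702728), 28.5% for Hspa8 (chr9:40800984-40810087), 23.9% for Hspd1 (chr1:55077835-55088243) and 11% for Hspe1 (chr1:55088132-55091307). Exons of Hsp90ab1 (chr17:45567775-45573271), Hsph1 (chr5:149614287-149636376) and Dnajb1 (chr8:83608193-83612653) shared no such stretch. How the authors counted reads that map to several places is not given in the sources used here, so values of the genes that share sequence are uncertain. The exons of Hspd1 and Hspe1 overlap by 112 bp on opposite strands, and 564 bp of Hspa1a exon lie opposite Gm20481, which had 0 to 2 counts per library. Of the library kits that the study's methods name, not all mark the strand. Reads from overlapping exons on opposite strands therefore cannot be told apart.

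Total counts ranged from 16632146 to 37739301 per library. Levels are given as counts per 1000000 counts (CPM), scaled by the trimmed mean of M values (TMM) over the 18 libraries, and a difference is a log2 fold change with its standard error (SE). Adjusted p values throughout are from edgeR's quasi-likelihood test with Benjamini-Hochberg adjustment over all genes tested, unless another test is named, and a gene is called where its adjusted p is under 0.05. Mouse Lipa was at 243 ± 33.9 (SD, n = 6) CPM in CON-GFP, 336 ± 59.3 in FPC-GFP and 300 ± 44.8 in FPC-LIPA. Reads were mapped to the mouse genome, and whether reads of the human transgene were counted on mouse Lipa was not tested. All 10 hepatocyte markers were at 1 CPM or more in every library. Their summed level was 77447 to 114620 CPM in CON-GFP, 66128 to 93280 in FPC-GFP and 53957 to 80152 in FPC-LIPA. The summed level of 10 leukocyte markers was 132 to 263 CPM in CON-GFP, 368 to 665 in FPC-GFP and 728 to 1072 in FPC-LIPA, without overlap between groups, and none of the 10 had a mean under 0.1 CPM in any group. Libraries FPC-LIPA 36, 37 and 39 stood apart. Genes of cytosolic ribosomal proteins took 6.60, 8.23 and 8.31% of their counts, against 2.20 to 3.00% in FPC-LIPA 31, 33 and 34 and 1.46 to 2.59% in the other 12 libraries, and for comparisons with FPC-LIPA the calls among the 10 genes and the counts over lists are therefore given with and without them. Each group enters 2 of the 3 comparisons, and comparisons that share a group are not independent.

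Per kb of exon, Hspa8 and Hsp90ab1 were the most abundant members in CON-GFP, at 237 ± 32.1 and 226 ± 44.6 CPM per kb (SD, n = 6), and did not differ beyond their spread. Hspd1 followed at 155 ± 14.2 and Hspe1 at 118 ± 20.8 CPM per kb. Hsp90aa1 had 34.8 ± 6.71, Hspb1 14.9 ± 5.08, Dnajb1 7.04 ± 0.92, Hsph1 5.99 ± 1.67, Hspa1b 1.29 ± 0.64 and Hspa1a 0.158 ± 0.192 CPM per kb. The inducible HSP70 genes were thus at the bottom of the order in control livers, and they kept the last 2 places in the other groups. In FPC-GFP, Hsp90ab1 led with 359 ± 97.2 CPM per kb, and Hspb1, at 92.4 ± 94.2, passed Hsp90aa1, at 66.8 ± 32.5, by less than the spread. In FPC-LIPA, Hspe1 led with 312 ± 237 CPM per kb, a mean set by 3 libraries. Together the 10 genes took 0.238 ± 0.030% of counts in CON-GFP, 0.344 ± 0.072% in FPC-GFP and 0.280 ± 0.024% in FPC-LIPA (SD, n = 6).

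**Figure D1:**
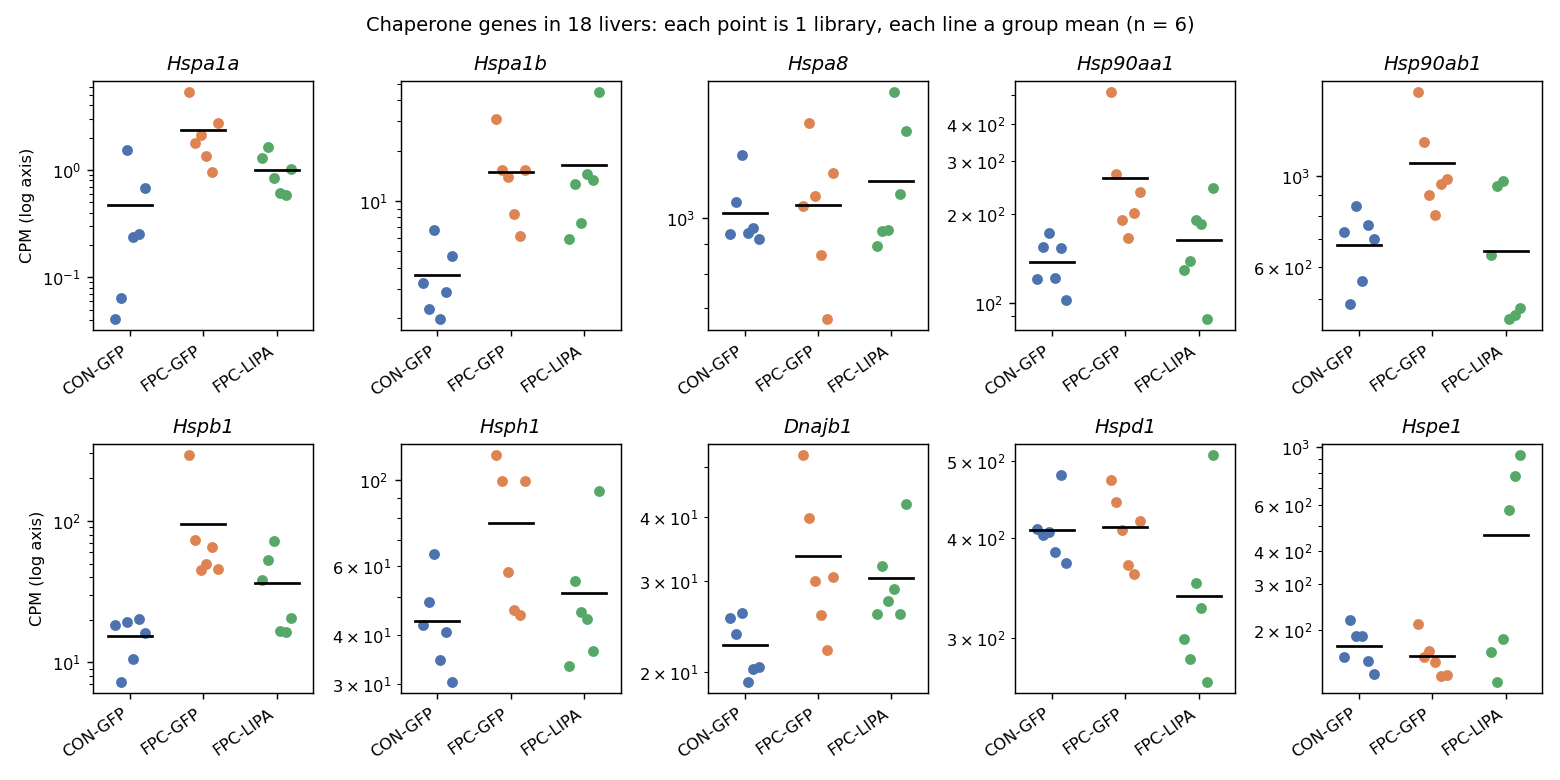
Level of each of the 10 genes in CPM on a log axis, with 1 point per library (n = 6 per group) and lines at the group means. Hspb1 has all FPC-GFP points above all CON-GFP points, Hspa8 and Hspd1 overlap between groups, and Hspe1 has 3 FPC-LIPA points from 573 to 934 CPM above all other libraries.

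The comparison of FPC-GFP with CON-GFP asks what the FPC diet changed in livers that carried the same vector. Of the 10 genes, 7 rose with the FPC diet and none fell, against 12.9% of 14307 tested genes called higher, 10.9% called lower and 23.8% called in either direction. The risen genes were the inducible HSP70 genes, both HSP90 genes, Hspb1, Hsph1 and Dnajb1, while constitutive Hspa8 and the mitochondrial pair were not called. The median log2 fold change was 0.74 over the 10 genes and 0.01 over all tested genes. At least 2-fold increases were called for 3 genes (Hspa1a, Hspa1b and Hspb1), against 4.76% of tested genes called higher by that rule.

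Hspb1 encodes the small heat shock protein HSP25 of the mouse, which binds unfolded proteins and the actin cytoskeleton. Its level in CON-GFP ranged from 7.29 to 20.1 CPM (median 17.3). In FPC-GFP it ranged from 45.0 to 292 CPM (median 57.5). Hspb1 was the only one of the 10 genes whose groups did not overlap, which 6.19% of tested genes showed in this direction. It rose by a log2 fold change of 2.62 (SE 0.46, 6.13-fold, adjusted p = 0.00151). FPC-GFP 11 held the highest value, at 292 CPM, and the next library had 73.5 CPM. Without FPC-GFP 11 the log2 fold change was 1.85, and Hspb1 was called under each of the 23 alternatives run.

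Hspa1b, an inducible HSP70, was the more abundant of the Hspa1 pair in every library. It ranged from 1.97 to 6.72 CPM (median 3.06) in CON-GFP. Its range in FPC-GFP was 6.16 to 30.7 CPM (median 14.6). The groups touched at their edges, since FPC-GFP 19 fell below CON-GFP 3 while the other 5 FPC-GFP libraries lay above all of CON-GFP. Hspa1b rose by 2.02 (SE 0.37, 4.06-fold, adjusted p = 0.00190) on the log2 scale. Hspa1a, its near-identical neighbour, ranged from 0.041 to 1.53 CPM (median 0.244) in CON-GFP, with 1 to 41 counts. In FPC-GFP it ranged from 0.961 to 5.30 CPM (median 1.95), with 32 to 170 counts. CON-GFP 3 overlapped with the FPC-GFP libraries, and CON-GFP 1 and 2 had 1 count each. Hspa1a rose by a log2 change of 2.27 (SE 0.61, adjusted p = 0.0152), a value that rests on these small counts. It was 3.07 (adjusted p = 0.00334) without CON-GFP 3 and 1.85 (adjusted p = 0.0368) without FPC-GFP 11. With the counts of the pair summed as 1 gene, the log2 fold change was 2.06 (adjusted p = 0.00226).

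Both HSP90 genes rose with the diet. Hsp90aa1, the inducible form, ranged from 102 to 171 CPM (median 137) in CON-GFP and from 165 to 512 CPM (median 219) in FPC-GFP. Only FPC-GFP 16 reached into the CON-GFP range, and FPC-GFP 11 was far above the rest. The log2 fold change was 0.93 (SE 0.24, adjusted p = 0.0128). Hsp90ab1, the constitutive form, ranged from 486 to 844 CPM (median 716) in CON-GFP and from 805 to 1605 CPM (median 972) in FPC-GFP. Again 1 library, FPC-GFP 16, lay within the CON-GFP range. The log2 fold change was 0.66 (SE 0.18, adjusted p = 0.0159).

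Hsph1, which releases ADP from HSP70, and Dnajb1, which hands unfolded proteins to HSP70, had smaller increases. Hsph1 ranged from 30.3 to 64.6 CPM (median 41.6) in CON-GFP and from 45.1 to 116 CPM (median 78.8) in FPC-GFP. FPC-GFP 11, 12 and 20 were above all CON-GFP libraries and the other 3 were not. Its log2 fold change was 0.82 (SE 0.25, adjusted p = 0.0280). Dnajb1 ranged from 19.2 to 26.1 CPM (median 22.1) in CON-GFP and from 22.1 to 52.6 CPM (median 30.3) in FPC-GFP. FPC-GFP 16 and 19 overlapped with CON-GFP and 4 libraries did not. Its log2 fold change was 0.56 (SE 0.18, adjusted p = 0.0350). Without FPC-GFP 11 neither was called, with log2 fold changes of 0.67 (adjusted p = 0.0628) for Hsph1 and 0.39 (adjusted p = 0.0721) for Dnajb1. The call of Hsph1 was also lost without CON-GFP 1, 6 or 8 or FPC-GFP 12 or 20, and that of Dnajb1 without CON-GFP 2, 6, 7 or 8 or FPC-GFP 12, with adjusted p of at most 0.0608 and 0.0750. FPC-GFP 11 was the highest of its group for 9 of the 10 genes, and FPC-GFP 19 was the lowest for 7.

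Hspa8, Hspd1 and Hspe1 were not called. Hspa8 had 1018 ± 138 CPM in CON-GFP against 1052 ± 269 CPM in FPC-GFP (SD, n = 6), a log2 change of 0.04 (SE 0.16, adjusted p = 0.886). Hspd1 had 410 ± 37.4 and 413 ± 43.0 CPM, a log2 change of 0.00 (SE 0.11, adjusted p = 0.996). Hspe1 had 174 ± 30.7 and 158 ± 28.8 CPM, a log2 change of -0.14 (SE 0.14, adjusted p = 0.480). For these genes the difference between the groups was at most about its SE.

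The count of 7 fell to 4 when all 18 libraries were fitted together, where 9.04% of tested genes were called. It fell to 2 (Hspa1b and Hspb1) among the libraries with sample sheet numbers from 55 to 68, where 13.6% were called. In those libraries the log2 fold changes of the 5 lost genes were 1.77 for Hspa1a (adjusted p = 0.0726), 0.96 for Hsp90aa1 (adjusted p = 0.0571), 0.61 for Hsp90ab1 (adjusted p = 0.0694), 0.77 for Hsph1 (adjusted p = 0.117) and 0.66 for Dnajb1 (adjusted p = 0.0718). The libraries with other numbers (CON-GFP 1, CON-GFP 2, FPC-GFP 20, FPC-LIPA 37) gave no fit by themselves because they are so few. Leukocyte markers moved with the diet as well, with 5 of 10 called higher and a median log2 fold change of 0.80. Of hepatocyte markers 5 of 10 were called lower (median -0.49), and of endothelial markers 3 of 6 were called higher (median 0.53). The part of these cell types in the results was not tested.

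**Figure D2:**
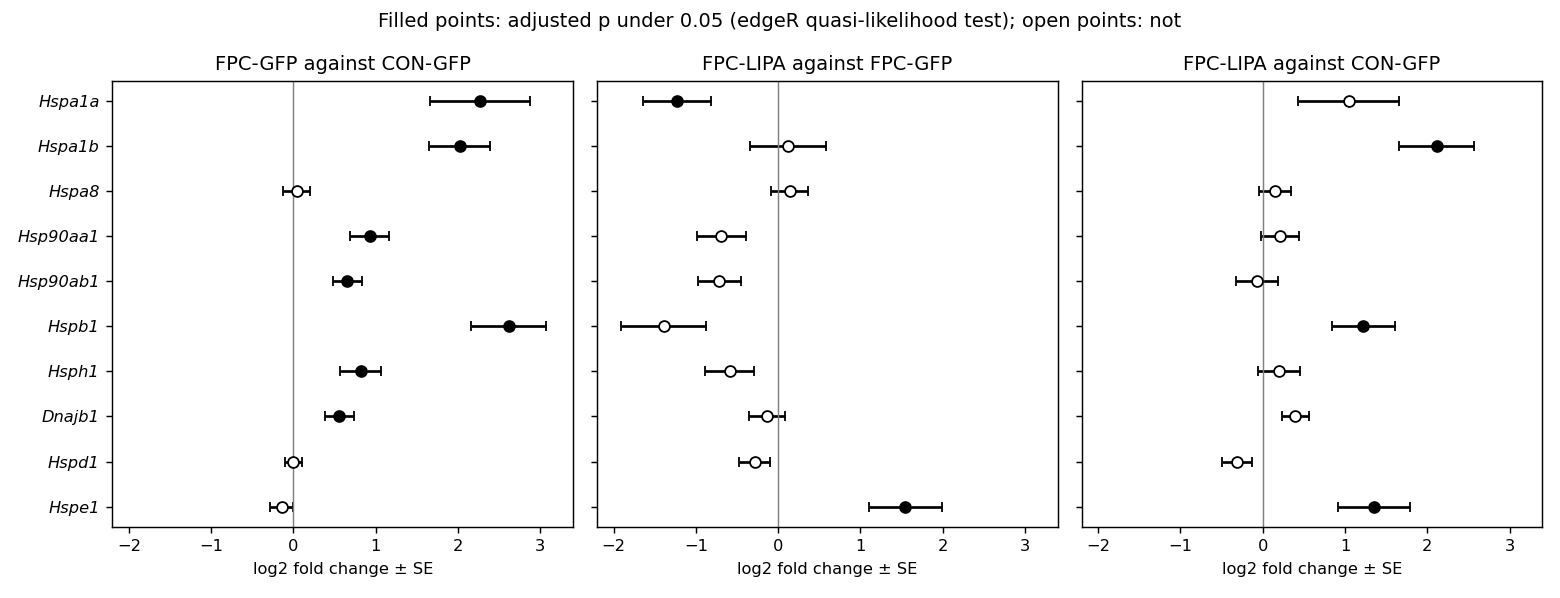
log2 fold changes of the 10 genes with bars of 1 SE in the 3 comparisons, filled where the adjusted p was under 0.05 and open otherwise. In FPC-GFP against CON-GFP 7 points are filled and positive, in FPC-LIPA against FPC-GFP only Hspa1a (-1.23) and Hspe1 (1.54) are filled, and in FPC-LIPA against CON-GFP Hspa1b, Hspb1 and Hspe1 are.

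The comparison of FPC-LIPA with FPC-GFP asks what LIPA changed in livers of mice on the FPC diet. Of the 10 genes, Hspe1 rose and Hspa1a fell, against 14.4% of 14620 tested genes called higher, 6.87% called lower and 21.2% called in either direction. Both changes were at least 2-fold, against 10.3% of tested genes called higher and 1.11% called lower by that rule. None of the 10 genes had groups without overlap, against 3.81% of tested genes higher and 3.76% lower. Most of the others had lower means than in FPC-GFP but were not called. The median log2 fold change was -0.44 over the 10 genes and 0.04 over all tested genes. Without FPC-LIPA 36, 37 and 39, none of the 10 genes was called and the median was -0.59, with 1.22% of 15246 tested genes called in that comparison.

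Hspe1 encodes HSP10, the lid of the mitochondrial chaperonin. FPC-GFP libraries held 132 to 211 CPM (median 154). FPC-LIPA libraries held 126 to 934 CPM (median 379). The FPC-LIPA group was split, since libraries 36, 39 and 37 had 573, 777 and 934 CPM, while libraries 31, 33 and 34 had 165, 126 and 185 CPM and lay in or below the FPC-GFP range. The log2 fold change was 1.54 (SE 0.44, adjusted p = 0.0291). Without the 3 high libraries it was 0.01 (adjusted p = 0.973). These 3 are the libraries of high ribosomal share, and the part of that share in the Hspe1 values was not tested. Leaving out any 1 of them ended the call as well (adjusted p = 0.0647 to 0.0711), and so did leaving out FPC-GFP 12, 13, 16, 19 or 20 (adjusted p = 0.0548 to 0.0612, with log2 fold changes of 1.49 to 1.55).

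Hspd1 encodes HSP60, the chamber that HSP10 closes. It ranged from 361 to 474 CPM (median 415) in FPC-GFP and from 264 to 509 CPM (median 313) in FPC-LIPA. Library 37 was the highest of all 18 and the other 5 FPC-LIPA libraries lay below every FPC-GFP library. The log2 fold change was -0.28 (SE 0.19, adjusted p = 0.268). In the mitochondrion the pair works together, but their RNA did not keep 1 ratio. Hspe1 counts were 1.75, 1.83 and 2.95 times the Hspd1 counts in FPC-LIPA 36, 37 and 39. The ratio was 0.447 to 0.552 in the other FPC-LIPA libraries, 0.318 to 0.445 in FPC-GFP and 0.315 to 0.541 in CON-GFP. The Hspd1 pseudogene Hspd1-ps3, with which Hspd1 shares 22.4% of its 100-base stretches, averaged 11.3 ± 5.08 CPM in FPC-LIPA, 35.4 ± 6.55 CPM in FPC-GFP and 24.1 ± 6.23 CPM in CON-GFP. Hspd1-ps4 had means of at most 0.377 CPM. With the counts of Hspd1 and its named pseudogenes summed, its log2 fold change was -0.35 (adjusted p = 0.163).

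**Figure D3:**
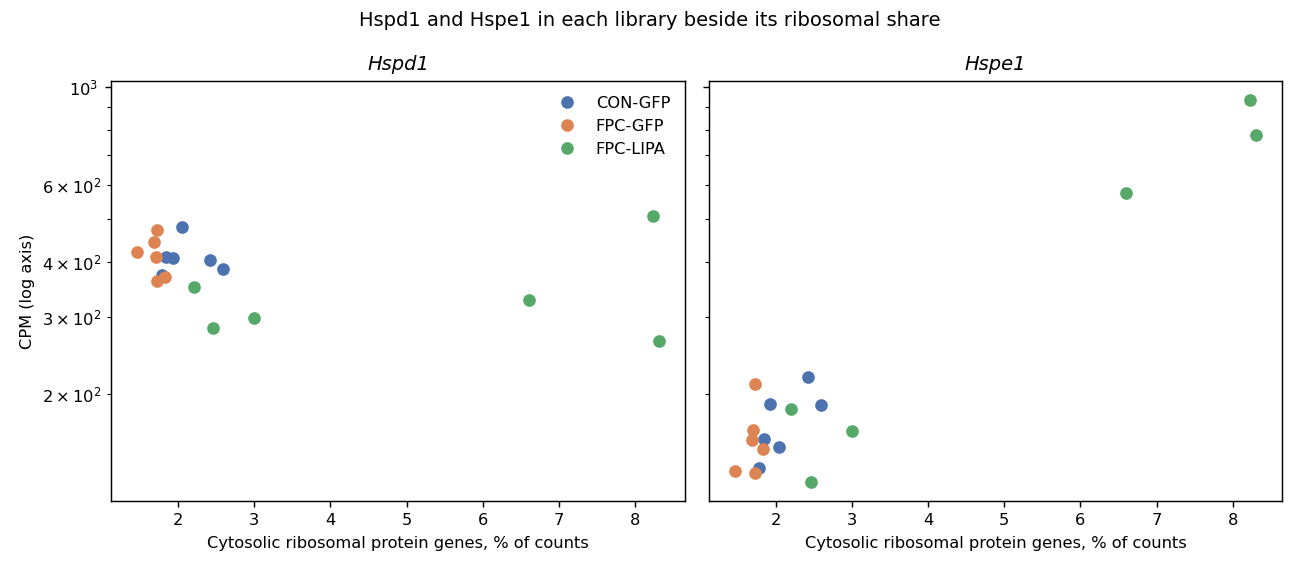
Hspd1 (left) and Hspe1 (right) in CPM on a shared log axis, against the percentage of each library's counts on genes of cytosolic ribosomal proteins, with 1 point per library. The 3 FPC-LIPA libraries with 6.60 to 8.31% have the highest Hspe1 values, 573 to 934 CPM, and only 1 of them is above the others for Hspd1.

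Hspa1a had 0.961 to 5.30 CPM (median 1.95) in FPC-GFP and 0.587 to 1.63 CPM (median 0.942) in FPC-LIPA. Libraries 34, 36 and 39 lay below all of FPC-GFP and the other 3 within its range. The log2 fold change was -1.23 (SE 0.41, adjusted p = 0.0463). The call did not hold for the sum of the pair, whose log2 fold change was 0.00 (adjusted p = 0.998), nor without FPC-LIPA 36, 37 and 39, where it was -0.89 (adjusted p = 0.342). It was also lost when any 1 of 9 libraries was left out (FPC-GFP 11, 12, 13, 16 or 20, or FPC-LIPA 34, 36, 37 or 39). Hspa1b did not follow Hspa1a. It ranged from 5.93 to 44.5 CPM (median 13.0) in FPC-LIPA, with library 37 far above the rest, and its log2 fold change was 0.12 (SE 0.46, adjusted p = 0.859). Without library 37 this was -0.48, and without 36, 37 and 39 it was -0.77, neither of them called. The share of Hspa1a in the counts of the pair was 4.02, 2.27 and 4.22% in FPC-LIPA 36, 37 and 39. It was 10.4 to 17.9% in the other FPC-LIPA libraries, 10.5 to 15.1% in FPC-GFP and 1.23 to 18.6% in CON-GFP. In these 3 libraries the share was thus below all other FPC-LIPA and FPC-GFP libraries but within the CON-GFP range, and the part of shared reads in the Hspa1a values was not tested.

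**Figure D4:**
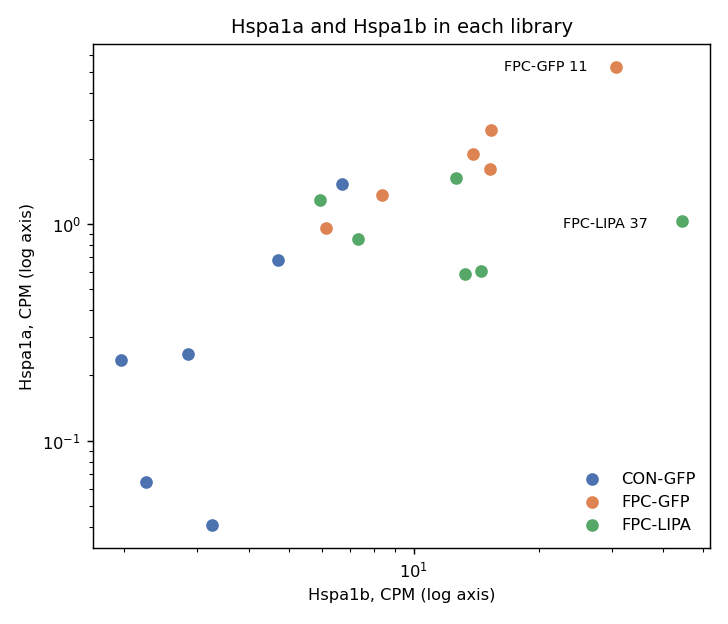
Hspa1a against Hspa1b, both in CPM on log axes, with 1 point per library and colours for the groups. FPC-GFP points reach up to 5.30 CPM of Hspa1a and 30.7 CPM of Hspa1b in FPC-GFP 11, while FPC-LIPA 37 has 44.5 CPM of Hspa1b and 1.03 CPM of Hspa1a.

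Hspb1 and Hsp90ab1, which had risen with the diet, had lower means in FPC-LIPA than in FPC-GFP that did not pass the test. Hspb1 ranged from 16.5 to 72.2 CPM (median 29.4) in FPC-LIPA against 45.0 to 292 CPM in FPC-GFP, with 4 of the 6 FPC-LIPA libraries below all of FPC-GFP and a log2 change of -1.39 (SE 0.51, adjusted p = 0.0629). Hsp90ab1 ranged from 447 to 973 CPM (median 557) against 805 to 1605 CPM, with 4 libraries below all of FPC-GFP and a log2 change of -0.71 (SE 0.26, adjusted p = 0.0581). Both passed under the DESeq2 Wald test (adjusted p = 0.0231 for Hspb1 and 0.0281 for Hsp90ab1) and under edgeR's exact test (adjusted p = 0.0302 and 0.0413). They also passed in the fit of all 18 libraries and without FPC-LIPA 33 or without FPC-LIPA 34. Without FPC-GFP 11 the log2 fold changes were -0.62 (adjusted p = 0.237) for Hspb1 and -0.57 (adjusted p = 0.133) for Hsp90ab1. For both, the lowest 3 values were those of libraries 36, 37 and 39. Hspb1 had a mean of 18.0 CPM in these 3 and 54.5 CPM in 31, 33 and 34, and Hsp90ab1 had means of 459 and 853 CPM. Without the 3 libraries the log2 fold changes were -0.79 (adjusted p = 0.476) for Hspb1 and -0.33 (adjusted p = 0.449) for Hsp90ab1. Hsp90aa1 had a log2 change of -0.69 (SE 0.30) and Hsph1 of -0.59 (SE 0.30, adjusted p = 0.153). Dnajb1 and Hspa8 had log2 fold changes of -0.13 (SE 0.22, adjusted p = 0.661) and 0.14 (SE 0.22, adjusted p = 0.662). Library 37 was the highest of its group for 6 of the 10 genes. In the same comparison 5 of 10 leukocyte markers were called higher (median log2 fold change 0.97) and 2 of 5 red blood cell markers were called higher, with summed levels of the latter of 520 to 2676 CPM in FPC-LIPA against 283 to 475 CPM in FPC-GFP. Their part in these results was not tested.

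The comparison of FPC-LIPA with CON-GFP sets diet and LIPA together against the control. Hspa1b, Hspb1 and Hspe1 rose and no gene fell, against 14.7% of 14433 tested genes called higher, 8.20% called lower and 22.9% called in either direction. All 3 increases were at least 2-fold, against 11.8% of tested genes. None of the 10 genes had groups without overlap, against 6.26% of tested genes higher and 4.84% lower. The median log2 fold change was 0.30 over the 10 genes and 0.04 over all tested genes. Hspa1b rose by 2.11 (SE 0.45, adjusted p = 0.00473) on the log2 scale, with 5 of the 6 FPC-LIPA libraries above all of CON-GFP. It was called without FPC-LIPA 37, at 1.52, and without FPC-LIPA 36, 37 and 39 too, at 1.25 (adjusted p = 0.0291). Hspb1 rose by 1.22 (SE 0.39, adjusted p = 0.0336), with 4 of 6 libraries above all of CON-GFP, and had a log2 fold change of 1.83 (adjusted p = 0.00106) without the 3 libraries. Hspe1 rose by 1.35 (SE 0.44, adjusted p = 0.0361), and its log2 fold change without the 3 libraries was -0.13 (adjusted p = 0.690). The call of Hspb1 was lost without CON-GFP 1, 2, 3, 6 or 8 or FPC-LIPA 34 (adjusted p up to 0.0745). That of Hspe1 was lost without CON-GFP 1, 3, 6, 7 or 8 or FPC-LIPA 36, 37 or 39 (adjusted p up to 0.0895). Among the sample sheet numbers 55 to 68 neither was called (adjusted p = 0.0991 and 0.177). The HSP90 genes, which rose with the diet in GFP livers, had log2 fold changes near 0 here, with 0.21 for Hsp90aa1 (SE 0.23) and -0.07 for Hsp90ab1 (SE 0.26). These values average libraries on both sides of CON-GFP. Of the 6 FPC-LIPA libraries, 2 lay above and 3 below all of CON-GFP for Hsp90ab1, and 3 above and 1 below for Hsp90aa1. Without FPC-LIPA 36, 37 and 39 the log2 fold change of Hsp90ab1 was 0.33, not called. Dnajb1 had 0.40 (SE 0.17, adjusted p = 0.0916) and Hspa1a 1.04 (SE 0.62, adjusted p = 0.227). With upper-quartile factors Dnajb1 was called, at 0.48 (adjusted p = 0.0394). Without CON-GFP 3 Hspa1a was called, at 1.86 (adjusted p = 0.0397), and the sum of the Hspa1 pair had a log2 fold change of 2.03 (adjusted p = 0.00555). In this comparison 6 of 10 hepatocyte markers were called lower (median log2 fold change -1.12) and 7 of 10 leukocyte markers higher (median 1.43). Their part in these results was not tested.

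Other genes of the same pathways were followed as 11 lists. In FPC-GFP against CON-GFP 23 of their 96 tested genes were called (16 higher and 7 lower), a share of 24.0% beside the 23.8% of all tested genes. Heat shock factors and their regulators had 0 of 4 tested genes called, with log2 fold changes of 0.16 (SE 0.10) for Hsf2 and -0.07 (SE 0.12) for Hsbp1, which binds and restrains heat shock factor 1. Hsf1, which encodes that factor and was named after its values were seen, had 0.42 (SE 0.16, adjusted p = 0.0634) on the log2 scale here and -0.58 (SE 0.32, adjusted p = 0.179) in FPC-LIPA against FPC-GFP. Of 5 other HSP70 and HSP110 genes 1 rose, Hspa4l, by 0.62 (SE 0.20, adjusted p = 0.0394). Of 8 J-domain cochaperones 1 rose, Dnajb2, by 0.54 (SE 0.13, adjusted p = 0.00980), and its groups did not overlap. Of all tested genes, 6.19% were higher without overlap. Of 16 cochaperones of HSP70 and HSP90 1 rose, Stip1, which links HSP70 to HSP90, by 0.62 (SE 0.17, adjusted p = 0.0170). Among 4 tested genes listed as small heat shock proteins, Hspb6 rose by 0.55 (SE 0.14, adjusted p = 0.0129), without overlap. Hspb8 fell by 0.47 (SE 0.15, adjusted p = 0.0346). Of the 8 subunits of the cytosolic chaperonin CCT 1 rose, Cct3, by 0.53 (SE 0.13, adjusted p = 0.0114), without overlap. Of 14 ER chaperones 0 were called, and Hspa5, the ER member of the HSP70 family, had a log2 fold change of 0.21 (SE 0.25). The medians of these 7 lists lay between -0.08 and 0.23.

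Among genes of mitochondrial protein folding, directions were mixed. Of 13 other mitochondrial chaperones and import motor genes 2 rose and 3 fell (median -0.14). Clpb, a disaggregase, rose by 0.68 (SE 0.14, adjusted p = 0.00335), without overlap, and Trap1, the mitochondrial HSP90, by 0.44 (SE 0.12, adjusted p = 0.0199). Dnajc19, of the import motor, fell by 0.82 (SE 0.14, adjusted p = 0.00160), without overlap between groups. For this comparison the share of all tested genes lower without overlap is not reported here. Dnajc19, and Rbm3 and Dusp1 below, therefore have no such share beside them. Hspa9, the mitochondrial HSP70, had a log2 fold change of 0.17 (SE 0.12). Of 10 mitochondrial quality control proteases 3 rose (median 0.10), among them Spg7 by 0.58 (SE 0.17, adjusted p = 0.0225) and Lonp1 by 0.51 (SE 0.15, adjusted p = 0.0261). None of these 3 overlapped between groups. Both cold-inducible RNA-binding genes fell, Rbm3 by 0.87 (SE 0.17, adjusted p = 0.00308), without overlap, and Cirbp by 0.55 (SE 0.18, adjusted p = 0.0410). Immediate early genes, which respond within minutes to many stimuli, tissue handling included, had 6 of 12 called higher and 1 lower (median 0.71). Fosb rose by 2.41 (SE 0.58, adjusted p = 0.00889) and Fos by 2.16 (SE 0.53, adjusted p = 0.00987), while Dusp1 fell by 0.96 (SE 0.20, adjusted p = 0.00423), without overlap. Their part in the rise of the heat shock genes was not tested. Without FPC-GFP 11, Hspa4l, 1 of the cold-inducible genes and 1 of the mitochondrial genes that fell were no longer called, and the median of the ER chaperones was -0.02 in place of 0.16.

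In FPC-LIPA against FPC-GFP 22 of 97 tested genes of the lists were called (12 higher and 10 lower), a share of 22.7% beside the 21.2% of all tested genes. Of 13 other mitochondrial chaperones and import motor genes 5 rose and 2 fell (median 0.42). Dnajc15 rose by 2.46 (SE 0.51, adjusted p = 0.0136) and Hscb, a cochaperone of iron-sulfur cluster assembly, by 1.85 (SE 0.40, adjusted p = 0.0141), both without overlap between groups. Of all tested genes, 3.81% were higher and 3.76% lower without overlap. Trap1 fell by 0.57 (SE 0.17, adjusted p = 0.0307) and Hspa9 by 0.44 (SE 0.15, adjusted p = 0.0486), both without overlap. Of 10 proteases Yme1l1 rose by 1.18 (SE 0.39, adjusted p = 0.0440) and 2 fell without overlap, with Lonp1 at -0.83 (SE 0.22, adjusted p = 0.0218). Of 14 ER chaperones 2 fell, Hyou1 by 1.24 (SE 0.40, adjusted p = 0.0400) and Pdia6 by 0.63 (SE 0.21, adjusted p = 0.0435).

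In the remaining lists of the same comparison, Hsbp1 rose by 1.08 (SE 0.30, adjusted p = 0.0257) and Hspa4 fell by 0.78 (SE 0.20, adjusted p = 0.0199), the latter without overlap. Dnajb2 fell by 0.81 (SE 0.27, adjusted p = 0.0470), and among cochaperones Ptges3, the HSP90 cochaperone p23, rose by 1.27 (SE 0.41, adjusted p = 0.0404) and Fkbp4 fell by 0.64 (SE 0.20, adjusted p = 0.0344). Hspb11 rose by 1.36 (SE 0.38, adjusted p = 0.0272). Of CCT subunits Cct4 rose by 0.91 (SE 0.25, adjusted p = 0.0270) and Cct8 fell by 0.51 (SE 0.16, adjusted p = 0.0394), the latter without overlap. Rbm3 rose by 0.97 (SE 0.25, adjusted p = 0.0204) and Klf6, of the immediate early genes, by 1.37 (SE 0.32, adjusted p = 0.0174), the latter without overlap. Without FPC-LIPA 36, 37 and 39, only Dnajc15 and Klf6 were called among the 11 lists, beside the 1.22% of all tested genes given above. Their log2 fold changes there were 0.57 (adjusted p = 0.0425) for Dnajc15 and 0.76 (adjusted p = 0.0440) for Klf6. Hscb had 0.66 (adjusted p = 0.166).

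In FPC-LIPA against CON-GFP 16 of 96 tested genes of the lists were called (12 higher and 4 lower), a share of 16.7% beside the 22.9% of all tested genes. Immediate early genes had 5 of 12 called higher and 0 lower (median 0.89), with Fos at 2.56 (SE 0.48, adjusted p = 0.00207) and Klf6 at 2.27 (SE 0.35, adjusted p = 0.000511), the latter without overlap. Of 13 mitochondrial chaperones 2 rose and 1 fell (median 0.09). Dnajc15 rose by 1.99 (SE 0.52) and Hscb by 1.35 (SE 0.38), and Dnaja3, named after its values were seen, fell by 0.45 (SE 0.16, adjusted p = 0.0471), without overlap between groups. Fkbp5, a glucocorticoid-responsive cochaperone of HSP90, fell by 1.98 (SE 0.54, adjusted p = 0.0168) and was the only one of 16 cochaperones called. Of 8 CCT subunits 2 rose, Cct4 by 0.82 (SE 0.25, adjusted p = 0.0309) and Cct5 by 0.56 (SE 0.19, adjusted p = 0.0490). Htra2, of the proteases, rose by 0.71 (SE 0.19, adjusted p = 0.0141), without overlap. Of all tested genes, 6.26% were higher and 4.84% lower without overlap. Pdia6 fell by 0.72 (SE 0.25, adjusted p = 0.0498), Hsbp1 rose by 0.97 (SE 0.29, adjusted p = 0.0269), Hspb11 rose by 1.44 (SE 0.39, adjusted p = 0.0156) and Hspb8 fell by 0.56 (SE 0.19, adjusted p = 0.0434). J-domain cochaperones, other HSP70 and HSP110 genes and cold-inducible genes had 0 called of 8, 5 and 2. Without FPC-LIPA 36, 37 and 39, 12 of 97 tested genes of the lists were called (8 higher and 4 lower), a share of 12.4% beside 18.0% of 15113 tested genes. Fos, Klf6, Htra2, Fkbp5, Hspb8 and Dnaja3 were called there too, with Fos at 2.91 (adjusted p = 0.00170) and Fkbp5 at -1.99 (adjusted p = 0.0453). Dnajc15, Hscb, Cct4, Cct5, Pdia6, Hsbp1 and Hspb11 were not, with Dnajc15 at 0.16 (adjusted p = 0.677) and Hscb at 0.20 (adjusted p = 0.596).

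**Figure D5:**
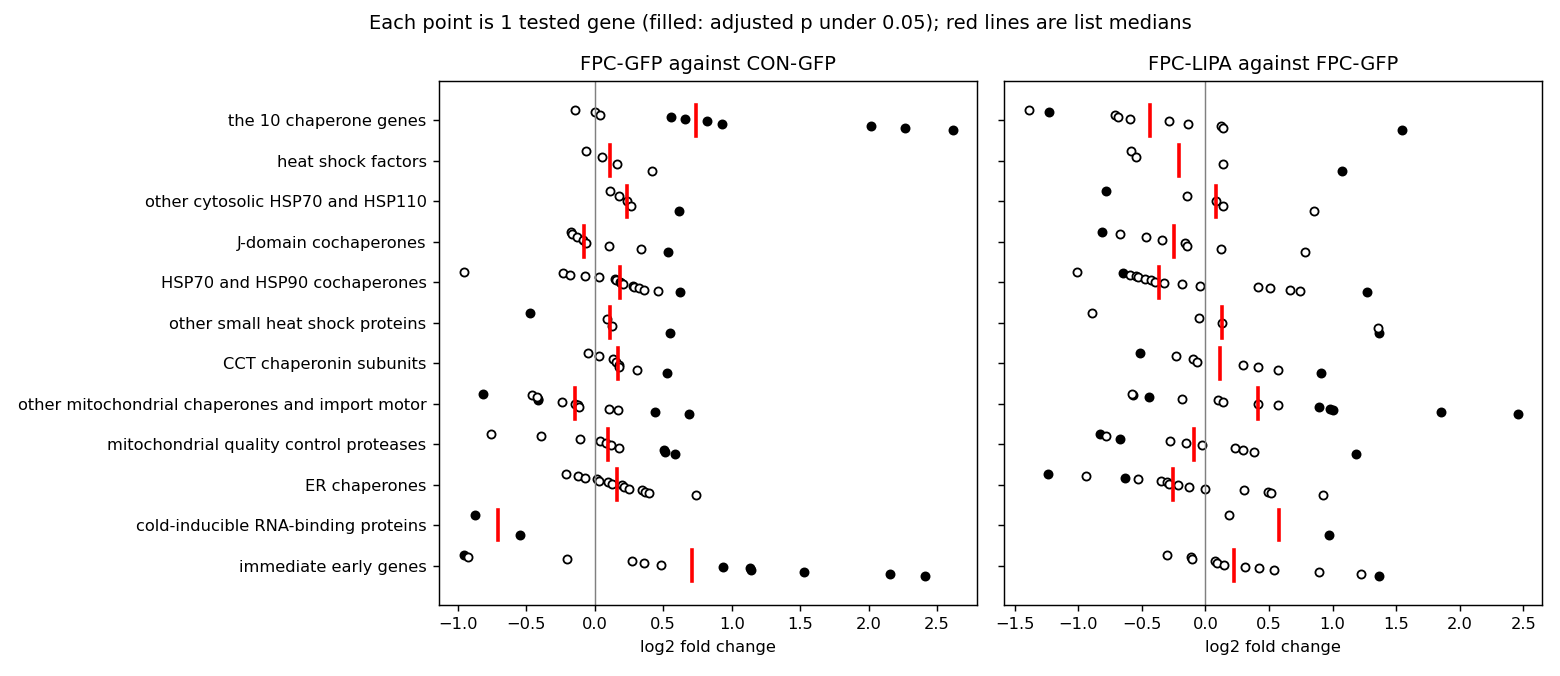
log2 fold changes of the 10 genes and of the tested genes of the 11 other lists in 2 comparisons, with 1 point per gene, filled where the adjusted p was under 0.05, and red lines at the medians. In FPC-GFP against CON-GFP the 10 genes (median 0.74) and the immediate early genes (0.71) lie furthest to the right, and in FPC-LIPA against FPC-GFP the other mitochondrial chaperones spread up to 2.46.

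Genes whose level followed that of the inducible members were named by their Pearson r with the mean standardized log2 CPM of Hspa1a, Hspa1b, Hsph1 and Dnajb1 over the 18 libraries, among 9645 genes. Stip1 came first with r = 0.87, and r was 0.84 after group means were removed. Wdr3 followed with 0.85 (0.82 after removal), Sf3a1 with 0.83 (0.78), P4ha2 with 0.82 (0.59) and P4ha1 with 0.82 (0.71). For the mean of Hspd1 and Hspe1 the first 5 were Tbc1d15 with r = 0.88 (0.91 after removal), Canx with 0.87 (0.93), Lap3 with 0.87 (0.88), Map2k1 with 0.86 (0.87) and Sec23ip with 0.86 (0.91). Over the 15 libraries without FPC-LIPA 36, 37 and 39, r was 0.79 to 0.94 for the 5 genes named for the inducible members and 0.53 to 0.73 for the 5 named for Hspd1 and Hspe1. Stip1 is also in a list above, and Canx encodes an ER chaperone. These r values describe the 18 libraries, which share 3 groups and differ in depth and ribosomal share, and they are the highest of many.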

How the data were processed

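Total RNA from 18 mouse livers was made into libraries with a TruSeq RNA or a stranded mRNA kit, and these were sequenced. Per the labels and methods, the authors trimmed paired reads with Trimmomatic, mapped them with HISAT2 2.1.0 to GRCm38 (mm10) and then obtained gene-level counts with Feature Counts (Subread). The deposited table holds raw counts of 55487 genes, not normalized. The strand setting and annotation are not given in the sources used here. Columns of 5 other samples were not used.

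Total counts of 16632146 to 37739301 per library set the precision, and every error is an SD or SE across mice. Groups came from the labels' overexpression and diet fields. In each comparison its 12 libraries were fitted alone with edgeR 4.0.16 in R 4.3.3 (filterByExpr, TMM, quasi-likelihood test, Benjamini-Hochberg adjustment), and SE is the log2 fold change divided by the square root of F. The authors' rule of 2-fold and adjusted p under 0.05 is given where named. Of the IDs, 55141 were found in GENCODE M21, which gave positions and lengths, and promoters came from RefSeq (GRCm38.p6). Of the steps, only the quasi-likelihood fit was tested on simulated data, for FPC-GFP against CON-GFP and without outlying libraries. The 10 genes, the lists and the rule for named genes (per list the 2 most abundant and the 2 largest called changes per comparison, the main named pseudogenes, of which 1 is not reported here, and the 5 genes of most similar pattern with a mean of at least 5 CPM) were chosen with earlier results of these data known.

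Alternatives were other scalings (DESeq2 1.42.0 size factors, upper quartile, library size), tests (DESeq2 Wald, edgeR exact), filters (none, at least 1 CPM in 6 libraries), thresholds, fits of all 18 libraries or of sample sheet numbers 55 to 68, removal of the trend on gene length, leaving out libraries, and summing of genes that share reads. Summing with the gene sharing most sequence, and the list counts and r values without doubted libraries, were chosen after seeing the data. Figures used Python 3.11.15 and matplotlib 3.10.9.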

Additional observations from a re-analysis of the deposited data

Results flagged for a closer look

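Of 30 sets of 6 values (10 genes in 3 groups), 7 had a highest library farther from the next than Dixon's 95% critical value allows. Chance flags about 1 in 20 groups only where values are normally distributed and groups independent. These CPM were not log-transformed and the same libraries recur across genes, so the 7 cannot be compared with that rate. FPC-GFP 11 was the far library for Hspa1b (30.7 CPM, next 15.3), Hsp90aa1 (512 CPM, next 272) and Hspb1 (292 CPM, next 73.5). FPC-LIPA 37 was the far library for Hspa1b (44.5 CPM, next 14.5), Hsph1 (93.5 CPM, next 55.2) and Hspd1 (509 CPM, next 351). FPC-LIPA 37 also had the lowest total count of all libraries, 16632146, and the lowest TMM factor, 0.758. Its sample sheet number is the highest, and its title alone carries a letter b after the mouse number. What that letter stands for is not given in the sources used here, and its bearing on these values was not tested. CON-GFP 7 was the far library for Hspd1 (480 CPM, next 411).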

How the results depend on the processing

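In FPC-GFP against CON-GFP the 7 calls among the 10 genes became 3 with a 2-fold minimum, 2 at an adjusted p under 0.01, 4 with all 18 libraries in one fit and 2 among sample sheet numbers 55 to 68, and were 5 to 7 with each library left out. The share of all tested genes called was 23.8% in the main fit, 9.04% with all 18 libraries and 13.6% among sample sheet numbers 55 to 68. It was 17.1 to 24.7% with each library left out. In FPC-LIPA against FPC-GFP the 2 calls became 0 at an adjusted p under 0.01, among sample sheet numbers 55 to 68 and without FPC-LIPA 36, 37 and 39, 1 with upper-quartile factors, library size alone, no filter or the length trend removed, and 4 under the DESeq2 Wald test or edgeR's exact test, and were 0 to 4 with each library left out. In FPC-LIPA against CON-GFP the 3 calls became 1 at an adjusted p under 0.01, among sample sheet numbers 55 to 68 and with the length trend removed, and 4 with upper-quartile factors, and were 1 to 3 with each library left out. For this comparison the share of all tested genes called was 22.9% in the main fit and 9.40% among sample sheet numbers 55 to 68. It was 23.1% with the length trend removed, 23.2% with upper-quartile factors and 16.1 to 32.4% with each library left out. The causes were not tested. Library size alone moved the median log2 fold change of all genes by 0.20 in the diet comparison, -0.13 in FPC-LIPA against FPC-GFP and 0.09 in FPC-LIPA against CON-GFP.

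No gene called by the quasi-likelihood test changed direction except Hspe1 in FPC-LIPA against CON-GFP, at -0.13 without FPC-LIPA 36, 37 and 39. The other changes of direction were in genes not called. In the diet comparison these were Hspa8 at -0.0081 (sample sheet numbers 55 to 68) and -0.031 (length trend), Hspd1 at -0.013 (DESeq2 size factors and Wald test), -0.0043 (sample sheet numbers) and -0.021 (length trend), and Hspe1 at 0.057 (library size). In FPC-LIPA against FPC-GFP they were Hspa1b at -0.14 (library size), -0.47 (sample sheet numbers), -0.77 (without FPC-LIPA 36, 37 and 39) and -0.0015 (summed with Hspa1a), and Hspa8 at -0.035 (library size) and -0.16 (without the 3 libraries). In FPC-LIPA against CON-GFP they were Hspa8 at -0.12 (without the 3 libraries), Hsp90ab1 at 0.012 (upper quartile), 0.063 (library size) and 0.33 (without the 3 libraries), and Hsph1 at -0.0078 (sample sheet numbers). With each library left out, diet log2 fold changes ranged from -0.077 to 0.14 for Hspa8 and from -0.039 to 0.051 for Hspd1. In FPC-LIPA against FPC-GFP they ranged from -0.48 to 0.46 for Hspa1b and from -0.26 to 0.037 for Dnajb1, and in FPC-LIPA against CON-GFP from -0.23 to 0.023 for Hsp90ab1 and from -0.052 to 0.34 for Hsph1. Over all single-gene values under alternatives, 586 kept direction and side of the threshold, 65 lost a call, 13 gained one and 36 changed sign. No paired analysis was possible because the groups share no replicate numbers.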
